A study of Mus musculus with 180 samples.

Results

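The AP-1 family was followed as the 8 genes whose symbols in the deposited table were Fos, Fosb, Fosl1 and Fosl2 of the FOS group, Jun, Junb and Jund of the JUN group, and Atf3. They were chosen by symbol and not by any measured value, out of 45070 genes in the table. All 8 passed the filter on low values, a mean of at least 10 normalized reads over all samples, as did 12714 genes in all.

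AP-1 is a transcription factor made of pairs of basic leucine zipper (bZIP) proteins. JUN proteins pair with each other or with FOS proteins, whereas FOS proteins need a JUN partner to bind DNA well, and ATF proteins such as ATF3 can join either network. In macrophages, LPS acts through TLR4 on the ERK, JNK and p38 branches of the MAP kinase cascade, which raise FOS and JUN genes within minutes to hours, and ATF3 is known there as a brake on inflammatory genes and as a stress-inducible factor.

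The samples were bone marrow-derived macrophages (BMDMs) of wild type male C57/BL6 mice, treated for 1 h with vehicle (DMSO) or with 1 of 58 clinical kinase inhibitors (CKIs), and then stimulated for 2 h with LPS at 10 ng/ml, the inhibitor or vehicle being the only labelled difference. There were 3 samples for every CKI and 6 for DMSO, the latter in 2 labelled sets of 3 that are used together here because no label ties a set to a CKI. All 180 samples, DMSO included, received LPS, so a value below DMSO is a lower level after stimulation, and unstimulated macrophages were not analysed here. CKIs were given at concentrations that differed between compounds, so each was compared with DMSO, and compounds are set side by side and not tested against each other. In bulk RNA, fewer cells carrying a transcript and less of it per cell cannot be told apart.

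The deposited values were normalized reads per gene, and their totals lay between 9481416 and 11094387 in DMSO and between 9477340 and 12273349 with CKIs. Sums of 8 macrophage markers ranged from 99709 to 216444 in DMSO and from 85635 to 250475 with CKIs, against 338 to 1104 and 269 to 2378 for 8 markers of neutrophils and their precursors. Marker sums of T cells, B cells, mast cells and erythroid cells stayed at or below 46 in every sample, those of dendritic cells at or below 162 while those of fibroblasts ranged from 19 to 147 in DMSO. Mitochondrial transcripts took 0.759 to 1.94% of the reads in DMSO and 0.525 to 4.47% with CKIs. Every sample correlated on average at 0.954 or more with the others of its condition, and no pair of samples held identical values.

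Per kilobase of exon, Junb was the most abundant member after 2 h of LPS, at 9415 ± 2300 normalized reads per kb in DMSO (SD, n = 6). Atf3 followed at 3416 ± 544 per kb and Jun at 634 ± 250 per kb. Fosl2 and Fos were close to each other at 84.4 ± 38.4 and 79.3 ± 8.10 per kb. Jund, the JUN protein that most cells make at rest, stood at 35.6 ± 7.69 per kb, Fosl1 at 27.4 ± 8.55 per kb and Fosb was the lowest at 6.67 ± 2.27 per kb. Of the neighbours in this order, Fosl2 and Fos, and Jund and Fosl1, overlapped in their DMSO samples and did not differ beyond their spread.

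Proximal promoters are printed for the 4 members whose condition means spread most against the spread within conditions (given further on), because FOS and JUN genes are known to be read through elements close to their start sites. Sequences are the RefSeq windows of build GRCm38.p6 from 170 bases before to 30 after the start, 5′ to 3′ on the strand of the gene, with matches to the searched motifs in capitals.
Atf3 (chr1:191183304-191183503, minus strand): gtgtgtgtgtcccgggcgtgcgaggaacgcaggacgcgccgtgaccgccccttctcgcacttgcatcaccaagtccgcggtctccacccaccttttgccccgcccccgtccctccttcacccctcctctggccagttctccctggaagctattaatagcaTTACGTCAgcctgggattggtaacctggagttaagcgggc
Fos (chr12:85473720-85473919, plus strand): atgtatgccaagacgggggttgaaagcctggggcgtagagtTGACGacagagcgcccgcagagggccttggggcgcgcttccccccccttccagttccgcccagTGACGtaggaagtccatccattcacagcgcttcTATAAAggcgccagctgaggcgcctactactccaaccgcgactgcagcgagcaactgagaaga
Fosb (chr7:19310016-19310215, minus strand): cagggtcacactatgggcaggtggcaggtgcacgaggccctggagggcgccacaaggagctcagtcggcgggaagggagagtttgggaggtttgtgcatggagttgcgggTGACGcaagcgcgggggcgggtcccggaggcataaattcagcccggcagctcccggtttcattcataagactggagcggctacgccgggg
Jun (chr4:95052193-95052392, minus strand): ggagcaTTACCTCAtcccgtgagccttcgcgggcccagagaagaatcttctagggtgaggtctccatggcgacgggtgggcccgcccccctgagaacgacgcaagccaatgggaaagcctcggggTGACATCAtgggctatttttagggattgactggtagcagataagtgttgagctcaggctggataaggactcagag
These capitals mark TTACGTCA in Atf3, TGACG and TATAAA in Fos, TGACG in Fosb, and TTACCTCA and TGACATCA in Jun, which are variants or the core of the cAMP response element bound by ATF and JUN-ATF pairs, and a TATA box. Both strands of windows from 250 bases before to 50 after the start were searched in 7 members (Fosl1 had no window in the table). The Atf3 motif began at position -10 and occurred in 0.499% of 32851 promoters, and inside it, on the other strand, lay TGACG, which 20.8% of promoters held. The Jun motifs began at -164 and -45 and occurred in 0.889% and 3.62%. In Fos, TGACG began at -129 and -66 and TATAAA at -33, and in Fosb TGACG began at -60, with TATAAA found in 13.6% of promoters. In Junb, whose window is not printed, TGACG began at -106 and TATAAA at 1. No member window held the palindrome TGACGTCA (1.79% of promoters), the AP-1 site TGANTCA (7.81%) or a CArG box, the SRF site (1.63%). Sequence outside these windows was not searched, so sites further from the start would be missed. These matches describe the letters of the windows and were not tested for binding.

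Across 464 pairs of a member and a CKI, limma called 18 pairs higher and 25 lower than DMSO at an adjusted p under 0.05, that is 3.88% and 5.39% of pairs, where 2.52% and 1.65% of all 737412 gene and CKI pairs were called. At an unadjusted p under 0.05 there were 120 pairs (25.9%, against 15.7% of all pairs). This fit left out the replicate number of the labels, although 172 of 180 samples lay closer to samples of their own number. With the number in the fit, 67 pairs were called, and all 43 of the first fit were among them. Calls without the number are used from here on unless stated. They fell on 24 CKIs: 12 CKIs had 1 member called, 6 had 2, 5 had 3 and Midostaurin had 4. All 3 CKI samples lay above the 6 DMSO samples in 37 pairs (7.97%, against 4.52% of all pairs) and below them in 30 (6.47%, against 2.02%). By gene, the calls were 13 higher for Fosb, 2 higher and 9 lower for Atf3, 6 lower for Junb, 5 lower for Jun, 2 higher and 2 lower for Fos, 1 higher and 2 lower for Fosl2, 1 lower for Jund and none for Fosl1. The median gene was called with 2 CKIs. As many higher calls as Fosb had were made for 0.102% of tested genes, and as many lower calls as Atf3 had for 1.17%. The spread of condition means relative to the spread within conditions (ratio of log2 SDs) was 2.53 for Atf3, a value exceeded by 0.0472% of tested genes, 1.32 for Fos and Jun, 1.3 for Fosb and below 1 for Fosl1, Fosl2, Junb and Jund.

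**Figure D1:**
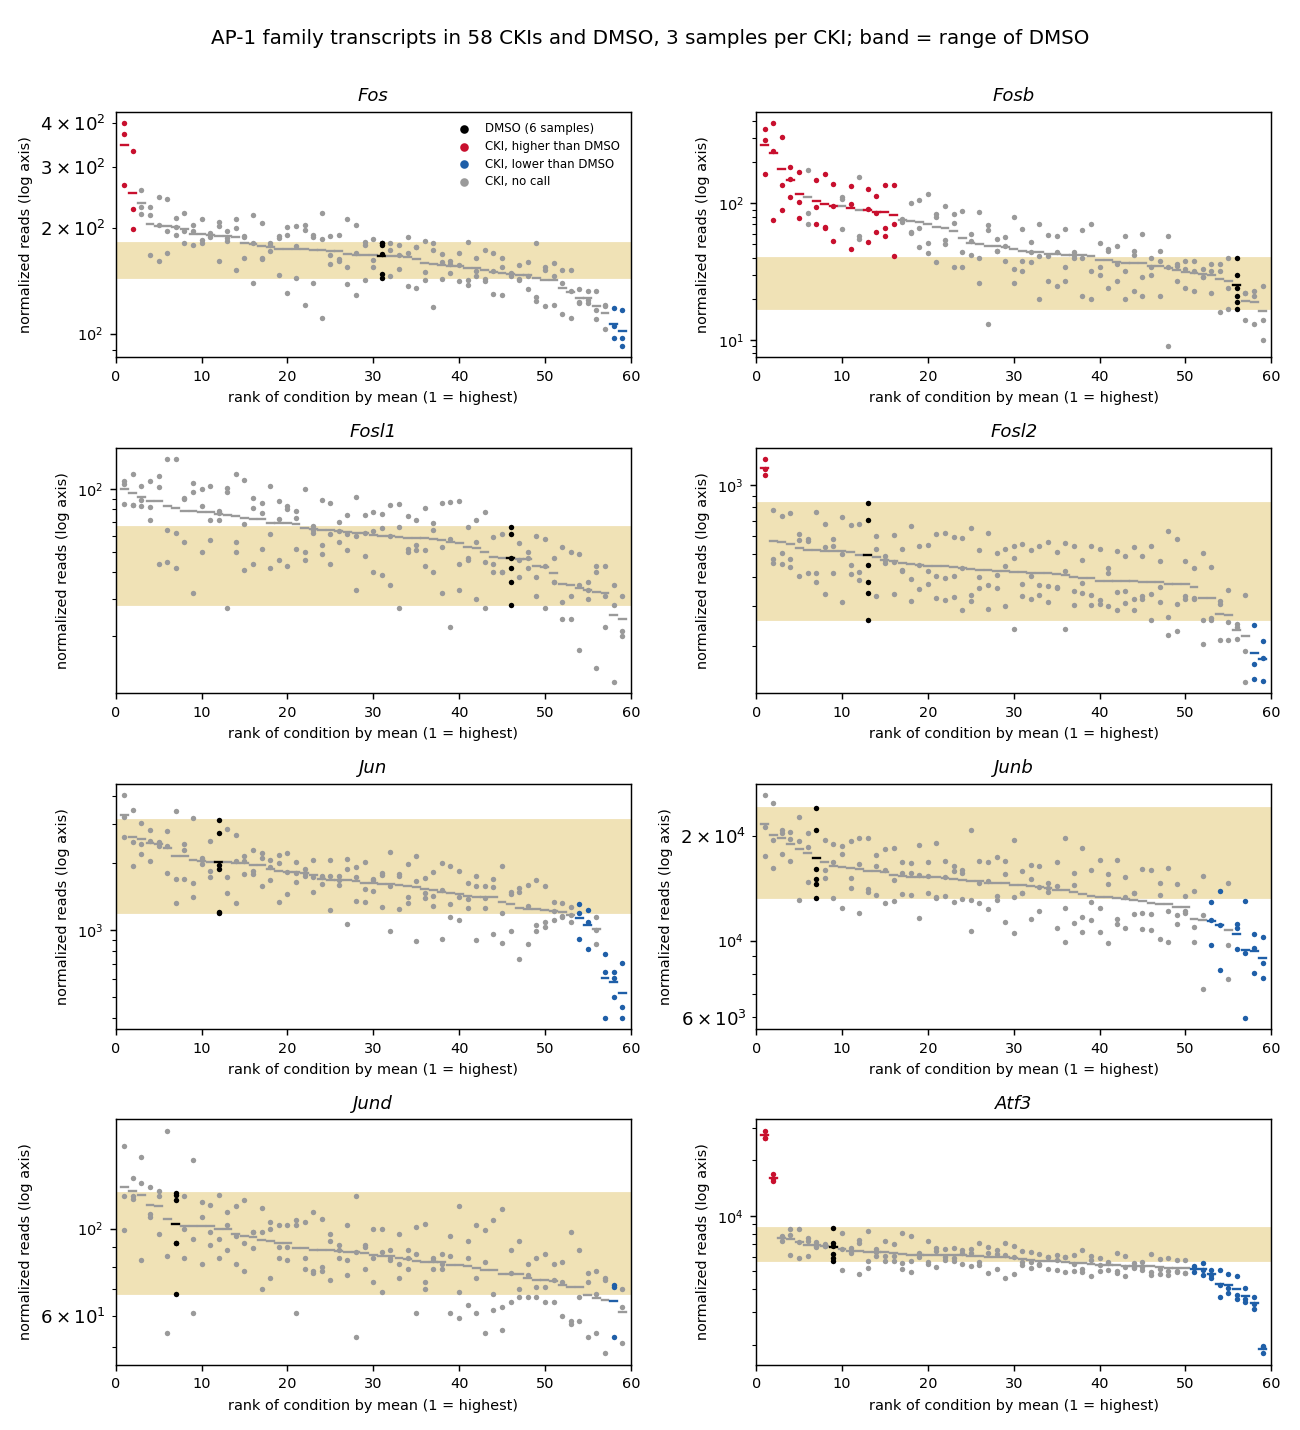
Normalized reads (log axis) of the 8 AP-1 members in 59 conditions, ordered by mean within each panel; points are samples, short lines are means, the band is the range of the 6 DMSO samples, and colours give the limma call. DMSO stands at rank 56 for Fosb and at rank 9 for Atf3, where the 2 highest conditions, BGT226 and Omipalisib, are separate from all others.

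**Figure D2:**
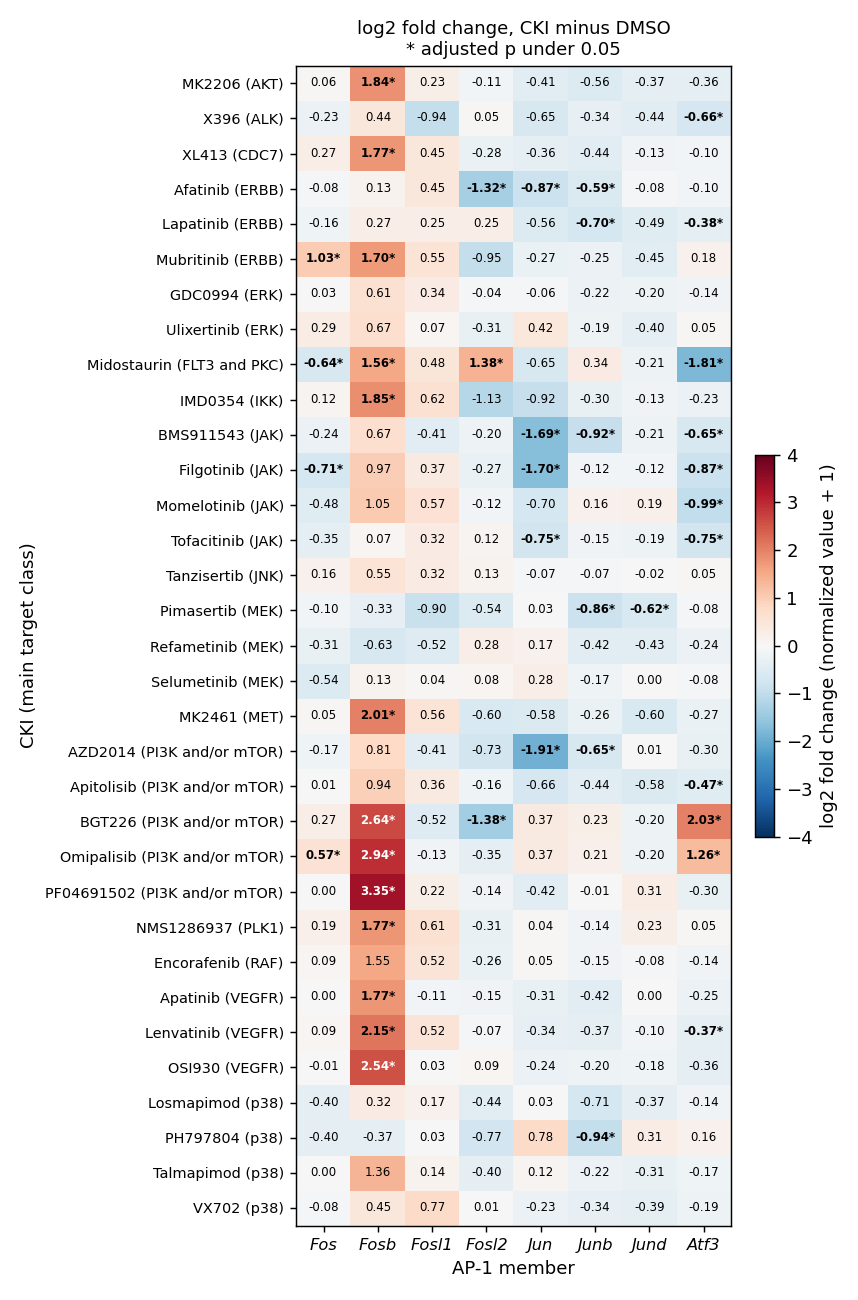
log2 fold changes against DMSO of the 8 members for the 33 CKIs that had a member called or that target MEK, ERK, RAF, JNK or p38, with calls starred and bold. The highest value is 3.35 for Fosb with PF04691502 and the lowest is -1.91 for Jun with AZD2014.

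Fos, the founding immediate-early member, was low and steady in DMSO, with 144 normalized reads in the lowest sample, 174 at the median and 182 in the highest. Mubritinib gave 372, 399 and 266, a rise of 1.03 ± 0.15 (log2, SE; adjusted p = 6.22e-07). Omipalisib gave 227, 333 and 199 (0.57 ± 0.15, adjusted p = 0.00275). Both sets of 3 samples lay above every DMSO sample. Filgotinib gave 117, 92 and 97 (-0.71 ± 0.15, adjusted p = 2.02e-04) and Midostaurin 97, 105 and 118 (-0.64 ± 0.15, adjusted p = 0.003), all below every DMSO sample. The remaining 54 CKIs were not called, and the highest of their means, 236 with Vandetanib (220, 257 and 230), had an adjusted p of 0.98 although its samples lay above DMSO. Without the CKI samples numbered 2 the Omipalisib call was lost (0.35, adjusted p = 0.172), and without those numbered 1 the Midostaurin call was lost (-0.58, adjusted p = 0.0892).

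Fosb, whose short splice form is known for its persistence in neurons, was the scarcest member in DMSO, with 17, 22.5 and 40 normalized reads in the lowest, the median and the highest sample. PF04691502 raised it to 289, 350 and 165 (3.35 ± 0.44, adjusted p = 2.24e-09), where 8.86% of genes were called higher. With Omipalisib it reached 241, 384 and 76 (2.94 ± 0.44, adjusted p = 3.07e-08), with BGT226 137, 306 and 89 (2.64 ± 0.44, adjusted p = 3.7e-07) and with OSI930 111, 183 and 150 (2.54 ± 0.44, adjusted p = 3.44e-04). Every one of these samples was above the DMSO range, although samples of 1 CKI differed by up to several fold. The other 9 calls, all higher, were Lenvatinib, MK2461, IMD0354, MK2206, Apatinib, NMS1286937, XL413, Mubritinib and Midostaurin, with log2 changes from 1.56 to 2.15 and adjusted p from 0.00932 to 0.0488. Few genes were called higher in several of these comparisons: 0.983% with MK2206, 0.102% with IMD0354, 0.0629% with Apatinib and 0.0236% with MK2461 and with NMS1286937. Fosb was the 1 gene of 12714 called higher with OSI930 (0.00787% of genes), and likewise the 1 gene called higher with XL413 (0.00787%). Telatinib (71, 85 and 176; 2.04 ± 0.44, adjusted p = 0.105) and Vandetanib (65, 112 and 108; 1.89 ± 0.44, 0.186) also lay above the DMSO range but were not called. Both were called with the replicate number in the fit (0.00457 and 0.0226). These changes are on the log2(value + 1) scale, which understates the change of so low a gene.

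The fitted difference for Fosb was above 0 with 55 of 58 CKIs, at a median of 0.825, and in 23 CKIs all 3 samples exceeded the 6 DMSO samples. DMSO was thus among the lowest conditions for this gene, and below it stood only Pimasertib (22, 14 and 22), PH797804 (21, 23 and 13) and Refametinib (10, 25 and 14), inhibitors of MEK, p38 and MEK whose values overlapped DMSO and were not called. By DMSO set the values were 21, 24 and 19 in the first and 40, 30 and 17 in the second. The calls with PF04691502, Omipalisib, BGT226 and OSI930 were kept in every leave-out of 1 replicate number or DMSO sample. Mitochondrial shares with PF04691502 reached 1.71 to 4.45%, and its Fosb call was kept with that share in the fit. The other 9 Fosb calls were not kept in every leave-out. Without the CKI samples numbered 2, in which Fosb was highest for 39 of 58 CKIs, 8 of the 13 calls were lost (adjusted p 0.121 to 0.481). Without those numbered 1, 7 were lost (0.0541 to 0.265), and without those numbered 3, 5 (0.0626 to 0.443). Without the third sample of the second DMSO set, 4 were lost (Apatinib, IMD0354, MK2461 and NMS1286937; 0.0514 to 0.0878).

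Fosl1, which encodes FRA-1, was not called with any CKI by limma on the values as deposited when the replicate number was left out of the fit. In that fit 8 CKIs had an unadjusted p under 0.05. Its DMSO samples held 28, 44.5 and 66 normalized reads at the lowest, the median and the highest. AC480 gave the highest mean, with 85, 109 and 106 (1.13 ± 0.38, adjusted p = 0.21), and Pimasertib the lowest, with 21, 20 and 31 (-0.90 ± 0.38, adjusted p = 0.0745). Pimasertib passed the threshold after rescaling by the median of ratios (-0.98, adjusted p = 0.0474) and with the replicate number in the fit (-0.90, adjusted p = 0.0233). With the mitochondrial share also in that fit, Fosl1 was not called. The AC480 samples were all above DMSO and the Pimasertib samples overlapped it. The gene spans of Fosl1 and of Ccdc85b, on the opposite strand, share 2776 bases, while the exons of Fosl1 hold 1705 bases. How much of the counted exon sequence is shared was not measured. The counting is not stated to use strand, so reads from any shared exon sequence cannot be told apart.

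Fosl2, which encodes FRA-2, was called higher with 1 CKI and lower with 2 when the replicate number was left out of the fit. With the number in the fit it was called higher with 1 and lower with 7. DMSO samples ranged from 259 through a median of 415 to 834 normalized reads. Midostaurin gave 1294, 1172 and 1100 (1.38 ± 0.31, adjusted p = 0.00129), above all DMSO samples, and it was the only condition whose samples stood apart from the next in order, Refametinib (777, 476 and 457). BGT226 gave 210, 178 and 141 (-1.38 ± 0.31, adjusted p = 1.56e-04) and Afatinib 247, 168 and 145 (-1.32 ± 0.31, adjusted p = 7.57e-04), all below DMSO. Without the CKI samples numbered 2, the Midostaurin (adjusted p = 0.0712) and Afatinib (0.0731) calls were lost and the BGT226 call was kept.

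Part of the Fosl2 spread followed the replicate number in the labels. The sample numbered 1 was the highest with all 58 CKIs and in both DMSO sets, and median deviations from the condition mean were 0.44 for number 1, -0.14 for number 2 and -0.28 for number 3 (log2). Mitochondrial shares also differed by number, at medians of 1.93, 1.33 and 1.1%, and their part in the Fosl2 pattern was not tested. Within number 1, Midostaurin (1294) stood above and BGT226 (210) and Afatinib (247) below both DMSO samples (706 and 834). Within number 2 the DMSO samples held 451 and 342 against 1172, 178 and 168, and within number 3 they held 259 and 379 against 1100, 141 and 145, in the same order.

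**Figure D3:**
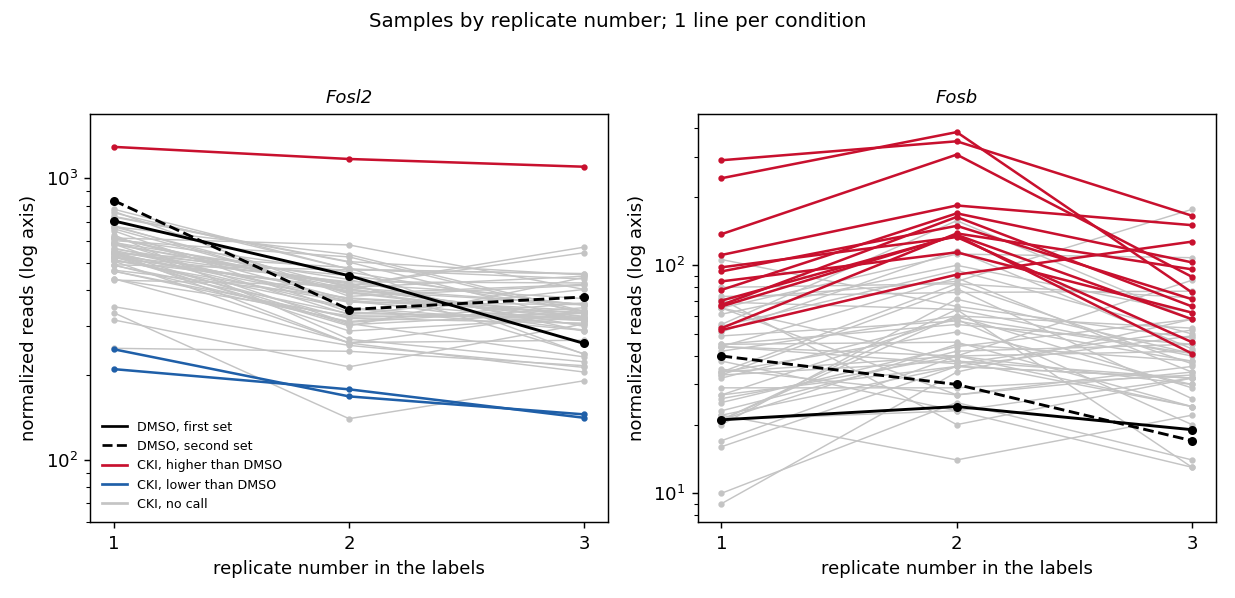
Fosl2 and Fosb (normalized reads, log axis) by the replicate number of the labels, 1 line per condition joining its 3 samples, with the 2 DMSO sets in black; the lines imply no order. Fosl2 is highest at number 1 in every condition, and Midostaurin stays above and BGT226 and Afatinib stay below both DMSO sets at each number.

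Jun, whose product is the main partner of FOS proteins, fell with 5 CKIs and rose with none. In DMSO it ranged from 1187 through a median of 1925 to 3141 normalized reads. AZD2014, an mTOR inhibitor, gave 447, 402 and 710 (-1.91 ± 0.26, adjusted p = 1.75e-09). The JAK inhibitors Filgotinib and BMS911543 gave 609, 496 and 648 (-1.70 ± 0.26, adjusted p = 1.15e-07) and 401, 778 and 642 (-1.69 ± 0.26, adjusted p = 2.14e-07). All 9 of these samples were below every DMSO sample, and the 3 calls were kept in every leave-out. Afatinib (1087, 818 and 1232; -0.87 ± 0.26, adjusted p = 0.00853) and Tofacitinib (1188, 909 and 1307; -0.75 ± 0.26, adjusted p = 0.0478) overlapped DMSO. Both of those calls were lost without the CKI samples numbered 1 (0.0658 and 0.173) or 2 (0.13 and 0.246), and the Tofacitinib call also without the second sample of either DMSO set (0.0942 and 0.153). PH797804, a p38 inhibitor, had the highest Jun level, at 2634, 4066 and 3230, which overlapped DMSO and was not called (0.78 ± 0.26, adjusted p = 0.0947). It was called higher with the mitochondrial share and the replicate number in the fit (0.0184). Without the second sample of the second DMSO set it was called as well (0.0422).

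Junb, a JUN protein that LPS raises strongly, was lower with 6 CKIs and higher with none. DMSO samples held from 13235 through a median of 15560 to 24113 normalized reads. PH797804 gave 7787, 10235 and 8638 (-0.94 ± 0.21, adjusted p = 0.00215), BMS911543 5989, 13035 and 9189 (-0.92 ± 0.21, adjusted p = 5.12e-04) and the MEK inhibitor Pimasertib 9539, 10442 and 8065 (-0.86 ± 0.21, adjusted p = 0.00274). The 9 samples were all under the lowest DMSO sample. Lapatinib (-0.70 ± 0.21, adjusted p = 0.013), AZD2014 (-0.65 ± 0.21, adjusted p = 0.0154) and Afatinib (-0.59 ± 0.21, adjusted p = 0.0293) made smaller differences, and 1 AZD2014 sample (13848) was within the DMSO range. None of the 6 Junb calls was kept in all leave-outs. The calls with BMS911543 (adjusted p = 0.0925), AZD2014, Lapatinib and Afatinib were lost without the CKI samples numbered 1, those with PH797804 (0.0699), Pimasertib (0.0582), AZD2014 and Lapatinib without those numbered 3, and AZD2014, Lapatinib and Afatinib also without the second sample of the second DMSO set (0.0562 to 0.109). Jund fell with Pimasertib alone (71, 72 and 53, against 68 to 123 with a median of 105 in DMSO; -0.62 ± 0.22, adjusted p = 0.032), with values that overlapped DMSO. That call was lost in 5 of 9 leave-outs (adjusted p up to 0.186). Mitochondrial transcripts took 3.24 to 4.29% of reads with Pimasertib, above every DMSO sample, and with that share and the replicate number in the fit the adjusted p was 0.088 for Junb and 0.469 for Jund. Neutrophil marker sums with Pimasertib were 1447 to 1671 against 338 to 1104 in DMSO, with 5 of 8 markers above every DMSO sample and none at 0, and their part in the Junb and Jund differences was not tested.

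Atf3 had the widest spread of condition means relative to the spread within conditions of the 8 members. In DMSO it ranged from 5695 through a median of 6558 to 8642 normalized reads. BGT226 gave 26584, 28999 and 26396 (2.03 ± 0.13, adjusted p = 3.43e-28), and Omipalisib 15465, 16777 and 15809 (1.26 ± 0.13, adjusted p = 1.32e-14). Both are PI3K and mTOR inhibitors, and their samples were separate from each other and from all remaining conditions. In BGT226 the median of all genes was 0.209 above DMSO, and rescaling the samples by the median of ratios took 0.143 off that median and left Atf3 at 1.88.

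At the other end, Midostaurin gave 1955, 1972 and 1796 normalized reads of Atf3 (-1.81 ± 0.13, adjusted p = 2.38e-23), the lowest of the 59 conditions and apart from the next. Momelotinib gave 3145, 3333 and 3650 (-0.99 ± 0.13, adjusted p = 4.26e-08), Filgotinib 3559, 3398 and 4052 (-0.87 ± 0.13, adjusted p = 8.48e-08) and Tofacitinib 3749, 3553 and 4730 (-0.75 ± 0.13, adjusted p = 4.17e-04). X396, an ALK inhibitor, gave 4079, 3823 and 4838 (-0.66 ± 0.13, adjusted p = 0.00193) and BMS911543 4204, 3614 and 5084 (-0.65 ± 0.13, adjusted p = 7.65e-05). Apitolisib, Lapatinib and Lenvatinib made the smallest called differences, from -0.47 to -0.37 (adjusted p 0.0166 to 0.0469). No sample of these 9 CKIs reached the DMSO range. The share of all genes called lower was 3.2% with Apitolisib, 0.409% with Momelotinib and 0.354% with X396. The calls with BGT226, Omipalisib, Midostaurin, Momelotinib, Filgotinib and BMS911543 were kept in every leave-out. Without the CKI samples numbered 2 the Tofacitinib (adjusted p = 0.0537) and X396 (0.0935) calls were lost, X396 also without those numbered 1 (0.0807), and Apitolisib, Lapatinib and Lenvatinib were lost without those numbered 1 (0.0628 to 0.137) or 3 (0.0833 to 0.203) and without the second sample of the second DMSO set (0.0785 to 0.15). Lenvatinib was lost in 7 of the 9 leave-outs.

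**Figure D4:**
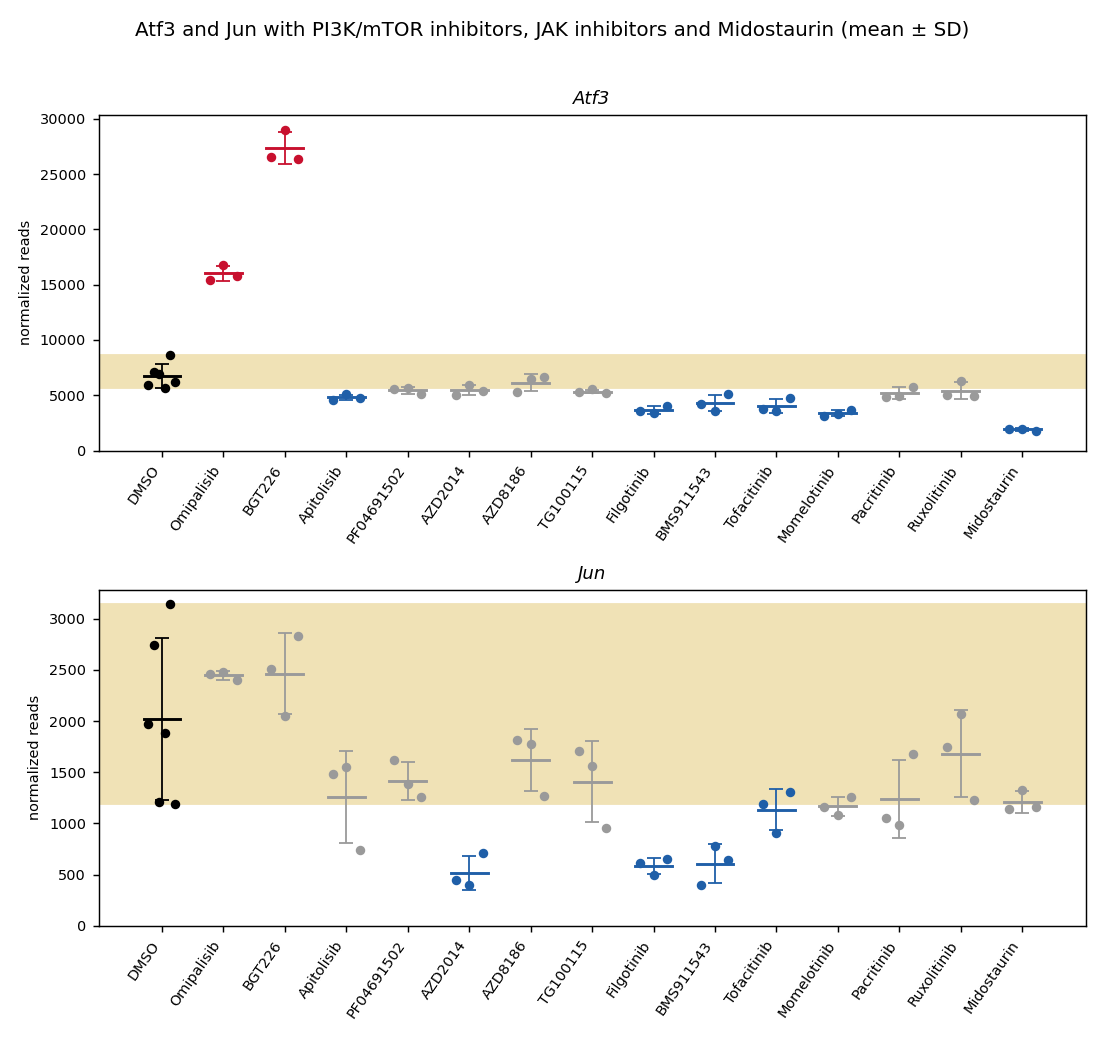
Atf3 and Jun (normalized reads, axes from 0) in DMSO, in 7 inhibitors of PI3K or mTOR, in 6 JAK inhibitors and in Midostaurin; points are samples, lines and bars are means ± SD, the band is the DMSO range, and red and blue mark higher and lower calls. Atf3 is highest with BGT226 (26396 to 28999) and lowest with Midostaurin (1796 to 1972), and Jun is lowest with AZD2014, Filgotinib and BMS911543.

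Within a target class the members did not all move the same way. The paper dosed each CKI for its own intended target, which could lie outside its class. Apitolisib was used against JAK1, and Momelotinib at a concentration for IKBKE. In the binding assay that set the concentrations, Filgotinib, Tofacitinib and BMS911543 were not found to bind JAK kinases. Of 7 inhibitors of PI3K or mTOR, Omipalisib and BGT226 raised Atf3, Apitolisib lowered it (4609, 5085 and 4767), and PF04691502 (5539, 5651 and 5113), AZD2014 (4999, 5921 and 5428), AZD8186 (5255, 6477 and 6694) and TG100115 (5270, 5525 and 5203) were not called. Jun fell in that class with AZD2014 and stood at 2507, 2050 and 2833 with BGT226 and at 2459, 2481 and 2396 with Omipalisib, within the DMSO range. Of 6 JAK inhibitors, Filgotinib, BMS911543, Tofacitinib and Momelotinib lowered Atf3, and Pacritinib (4882, 4909 and 5786; adjusted p = 0.145) and Ruxolitinib (5021, 6300 and 4900; adjusted p = 1) were not called. With the replicate number in the fit, Atf3 was also called lower with AZD2014 (-0.30, adjusted p = 0.0352) and PF04691502 (-0.30, 0.0376). The same held for TG100115 (-0.33, 0.0435) and Pacritinib (-0.37, 0.0457). When the mitochondrial share was also in that fit, AZD2014 alone among these was called (0.0168). Concentrations differed within classes, so these values stand side by side without a test.

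With BGT226, 2 of 8 members were higher (Fosb and Atf3; 24.1% of genes were) and 1 was lower (Fosl2; 6.32%). Of 30 other bZIP factors 12 were higher and 1 lower, at a median log2 change of 0.56 against 0.209 for all genes. Ddit3, which encodes the stress factor CHOP, went from 22 to 76 in DMSO to 1319, 731 and 566 (4.56 ± 0.46), and Atf4, the central factor of the integrated stress response, from 1293 to 1753 to 9951, 9832 and 10468 (2.67 ± 0.09). Immediate-early genes outside AP-1 gave 10 higher and 1 lower of 19 (median 0.90), among them Ppp1r15a, a phosphatase subunit of the same response, at 5700, 5693 and 5358 against 1182 to 1539 (2.06 ± 0.14). Of 21 AP-1 target genes 8 were higher and 4 lower (median 0.35), with Plau (urokinase) at 3197, 3227 and 2155 against 86 to 152 (4.70 ± 0.30), Hbegf at 63, 68 and 71 against 3 to 17 (2.77 ± 0.43) and Il1b lower at 1994, 1128 and 1052 against 2842 to 6751 (-1.54 ± 0.41). Mrtfb and Mrtfa, cofactors of SRF, and Ets2 were the 3 higher of 8 SRF and ETS factors, 6 of 24 MAP kinase cascade genes were higher and none lower, and 4 of 13 ATF4-CHOP stress genes, a list that also holds Ddit3 and Atf4, were higher and 1 lower.

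With Omipalisib, 3 members were higher (Fos, Fosb and Atf3; 17.5% of genes were) and none lower (8.16%). Of the other bZIP factors 14 were higher and 2 lower (median 0.48, all genes 0.12), with Ddit3 at 289, 383 and 176 (2.96 ± 0.46) and Atf4 at 6009, 6011 and 6143 (1.93 ± 0.09). The immediate-early genes Klf4 (57, 56 and 55 against 5 to 18; 2.48 ± 0.44) and Nr4a2 (78, 66 and 75 against 8 to 23; 2.37 ± 0.39) were among 6 higher and 0 lower of 19 (median 0.33), and Ppp1r15a rose by 2.32 ± 0.14. AP-1 target genes gave 8 higher and 3 lower of 21 (median 0.44), Plau at 1354, 1652 and 816 (3.50 ± 0.30).

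With AZD2014, 2 members were lower (Jun and Junb; 13.5% of genes were) and none higher (6.06%). Lower calls outnumbered higher ones among the other bZIP factors (7 lower and 1 higher of 30, median -0.16, all genes -0.0165), with Xbp1, a factor of the unfolded protein response, at 405, 468 and 518 against 1134 to 2226 (-1.85 ± 0.22), and the MAP kinase cascade genes (7 lower and 1 higher of 24, median -0.29), with Map2k2 at 108, 113 and 125 against 192 to 680 (-1.57 ± 0.36). Dusp1, a phosphatase that switches off p38 and JNK, was at 927, 683 and 952 against 7541 to 27409 (-4.30 ± 0.40). It is 1 of 19 immediate-early genes outside AP-1, of which 6 were higher and 3 lower (median 0.22). The AP-1 target genes gave 4 higher and 3 lower of 21 (median 0.14), Mmp12 at 1928, 1319 and 1565 against 318 to 594 (1.92 ± 0.31).

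Among the JAK inhibitors, Filgotinib lowered 3 members (Fos, Jun and Atf3; 14.6% of genes were lower) and raised none (6.1%). Mafk, a small MAF partner of bZIP factors, was at 852, 813 and 942 against 2144 to 4189 (-1.63 ± 0.20), and Batf2 at 139, 93 and 54 against 225 to 849 (-2.07 ± 0.55). In this comparison 5 other bZIP factors were lower and 1 higher (median 0.07, all genes -0.0354), and 6 MAP kinase cascade genes were lower and none higher (median -0.33). BMS911543 lowered 3 members (Jun, Junb and Atf3; 8.08%) and raised none (0.472%), with Dusp1 at 846, 3825 and 717 (-3.65 ± 0.40) and Xbp1 at 424, 672 and 673 (-1.52 ± 0.22). Tofacitinib lowered 2 (Jun and Atf3; 0.857%) and raised none (9.02%), while AP-1 target genes gave 9 higher and 0 lower of 21 (median 0.51), such as Tnf at 13424, 18956 and 16354 against 6668 to 8932 (1.06 ± 0.31). Mitochondrial shares with Tofacitinib were 1.35 to 4.01%, and with that share and the replicate number in the fit its Jun call was lost (adjusted p = 0.336).

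Midostaurin had the most members called: Fosb and Fosl2 were higher (2.63% of genes were) and Fos and Atf3 lower (1.93%). Mafk was lower here too, at 960, 968 and 699 (-1.63 ± 0.20), and Batf higher at 499, 413 and 598 against 148 to 310 (1.22 ± 0.26). Myc rose to 1382, 1492 and 1226 from 212 to 398 (2.02 ± 0.22) and Nr4a1 to 172, 231 and 132 from 26 to 56 (2.09 ± 0.32), whereas Ppp1r15a fell to 631, 435 and 515 (-1.36 ± 0.14). Of 21 AP-1 target genes 2 were higher and 3 lower (median 0.11, all genes 0.109), including Tnf at 3171, 3320 and 5574 (-0.99 ± 0.31).

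Of the ERBB inhibitors, Afatinib lowered 3 members (Fosl2, Jun and Junb; 12.8% of genes were lower) and raised none (9.06%). Atf4 (4987, 5933 and 5834; 1.81 ± 0.09) and Ddit3 (138, 157 and 97; 1.89 ± 0.46) were higher in those samples, and 9 of 13 ATF4-CHOP stress genes were higher and 2 lower (median 1.81, all genes 0.0343), while Atf3 itself was not called (-0.10 ± 0.13). Dusp1 was at 1214, 1357 and 1513 (-3.62 ± 0.40). Lapatinib lowered 2 (Junb and Atf3; 5.26%) and raised none (18.1%), with 6 of 21 AP-1 target genes higher and none lower (median 0.43). Lapatinib samples had mitochondrial shares of 1.92 to 3.71% and neutrophil marker sums of 1426 to 1634, with 5 of 8 markers above and the sum above every DMSO sample (338 to 1104) and 1 marker at 0. With the mitochondrial share and the replicate number in the fit, its Junb (adjusted p = 0.0609) and Atf3 (0.159) calls were lost, and the part of the neutrophil markers was not tested. Mubritinib raised 2 (Fos and Fosb; 1.08%) and lowered none (0.763%), with the ERK-responsive Egr1 at 195 to 453 against 31 to 148 (2.12 ± 0.51) and 7 of 13 ATF4-CHOP stress genes higher and none lower (median 0.73). The VEGFR inhibitor Lenvatinib raised Fosb (11.4% of genes were higher) and lowered Atf3 (0.802%). Its mitochondrial shares, 2.07 to 3.7%, were above every DMSO sample, and with that share and the replicate number in the fit the Atf3 call was lost (adjusted p = 0.289).

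The MAP kinase cascade is the known route to FOS and JUN genes, and 11 CKIs target MEK, ERK, RAF, JNK or p38. Calls here are from the fit without the replicate number unless another is named. Only 2 of these CKIs had a member called. They were Pimasertib (Junb and Jund lower, 5.68% of genes were, and none higher, 16%) and PH797804 (Junb lower, 1.25%, and none higher, 0.731%). With Selumetinib and Refametinib (MEK), Ulixertinib and GDC0994 (ERK), Encorafenib (RAF), Tanzisertib (JNK), and Losmapimod, Talmapimod and VX702 (p38), no member was called, and few genes were: 0.181% lower and 0.00787% higher with VX702, 0.0629% lower and 0.00787% higher with Tanzisertib, 0.0551% lower and 0.0315% higher with Losmapimod, 0.0157% lower with Ulixertinib, 0.00787% lower with GDC0994, and 0% in every other direction and CKI of these 9. Selumetinib had Fos at 121, 103 and 120, Losmapimod at 122, 134 and 123 and PH797804 at 132, 125 and 122, all below the 6 DMSO samples but not called (adjusted p 0.193 to 0.778). Pimasertib had Fos at 170, 141 and 157, which overlapped DMSO (-0.10 ± 0.15), while its Egr1 was at 6, 6 and 5 against 31 to 148 (-3.50 ± 0.51) and its Hbegf at 1, 1 and 5 against 3 to 17 (-1.79 ± 0.43). Egr2 went the other way, at 816, 233 and 610 against 104 to 233 (1.59 ± 0.33). Of 19 immediate-early genes outside AP-1, 1 was higher and 4 lower with Pimasertib. Of 21 AP-1 target genes, 1 was higher and 5 lower. Losmapimod had Junb at 7723, 14680 and 9675 (-0.71 ± 0.21, adjusted p = 0.224), 2 samples below and 1 within the DMSO range. Junb was called lower with Losmapimod when the replicate number was in the fit (adjusted p = 0.0193). It was also called with the mitochondrial share added to that fit (0.0432), and without the CKI samples numbered 2 (0.0287). With PH797804, Dusp1 was at 4103, 5295 and 3239 (-2.01 ± 0.40) and Zfp36, an mRNA decay factor, at 2536, 1985 and 1543 against 3844 to 8441 (-1.57 ± 0.21). For the JNK inhibitor Tanzisertib, Jun stood at 1830, 2219 and 1449 (-0.07 ± 0.26), within the DMSO range.

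**Figure D5:**
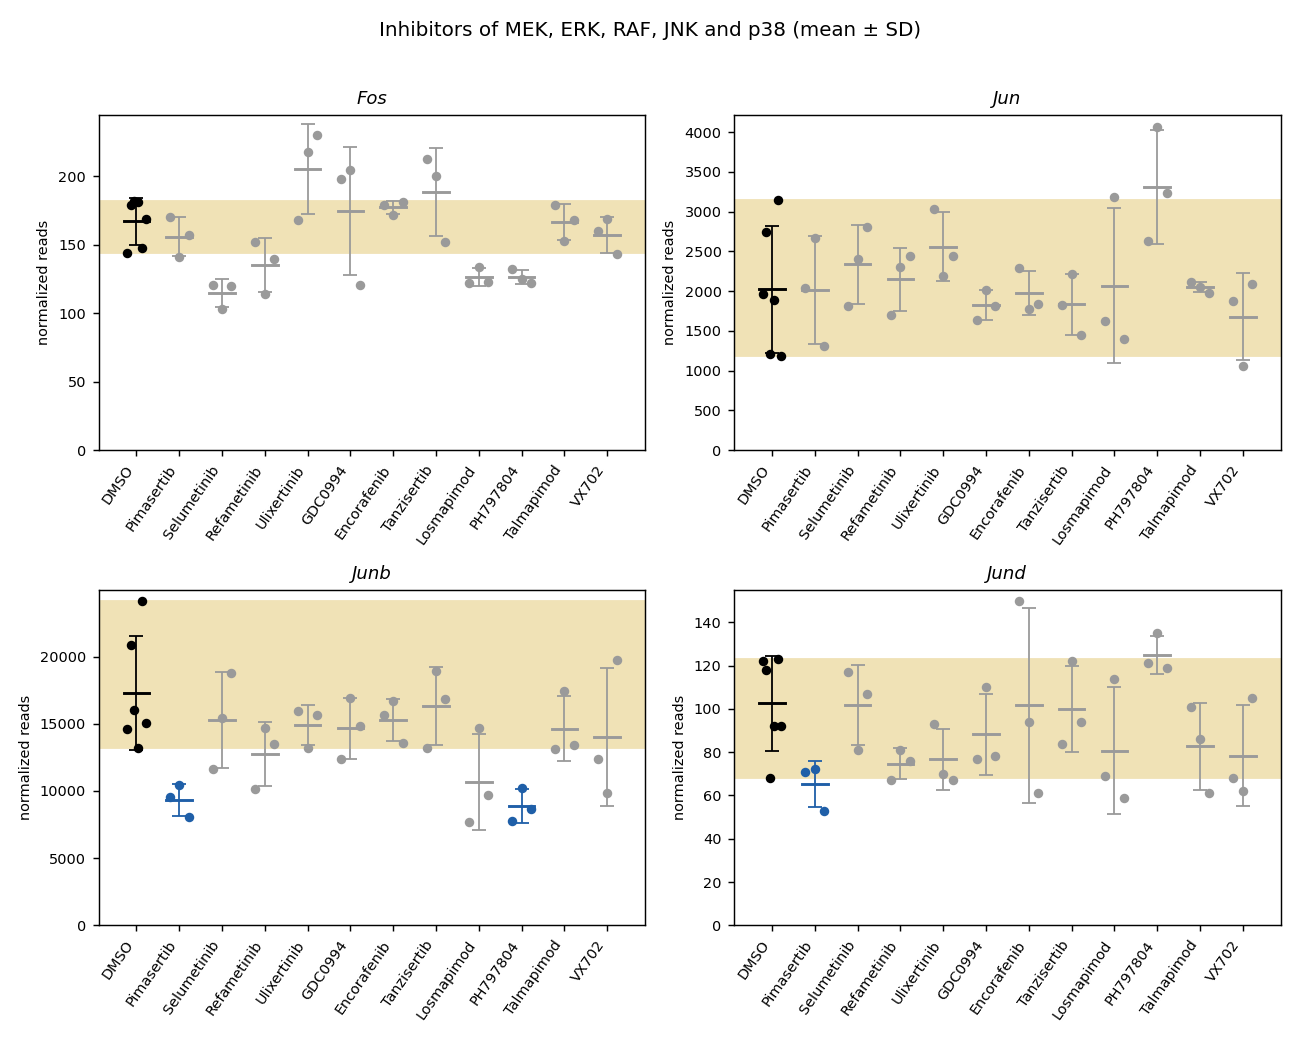
Fos, Jun, Junb and Jund (normalized reads, axes from 0) in DMSO and in 11 inhibitors of MEK, ERK, RAF, JNK or p38; points are samples, lines and bars are means ± SD, the band is the DMSO range and blue marks the 3 calls, all lower. Junb lies below the DMSO range in all samples of Pimasertib (8065 to 10442) and PH797804 (7787 to 10235).

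Likeness between genes is given as Spearman's rho of condition means over 59 conditions, which share libraries, scaling and DMSO as the common treatment background, and is a description without a test. Among members the closest pair was Jun and Atf3 (0.72), followed by Fos and Fosb (0.49) and Fos and Atf3 (0.43), and Fosl2 and Atf3 ran opposite (-0.37). Over all tested genes, Atf3 was closest to Sptlc2 (0.83), Mafk (0.81) and Tmem184b (0.8), and Jun to Tpst1 (0.82), Frmd4a (0.81) and Lratd2 (0.81). Fos was closest to Mul1 (0.7), Cldn23 (0.69) and Ppp1r15a (0.66), and Fosb to Ahnak (0.64), Hbegf (0.63) and Rgcc (0.61). For Fosl2 these were Gpr132 (0.68), Sema4c (0.67) and Timp1 (0.63), for Junb Zpr1 (0.77), Pxn (0.76) and Pias4 (0.73), and for Jund Hpcal1 (0.58), H2ac18 (0.58) and Ticam2 (0.53). Fosl1 was closest to its overlapping neighbour Ccdc85b (0.93), then to Cnbp (0.81) and Rcc1 (0.78).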

How the data were processed

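RNA of 180 samples was measured by polyA-selected SMART-seq2 RNA-seq. The deposited values are a score: reads over exons per gene that the authors normalized on genes with little change and rounded to whole numbers. They are therefore not raw counts, and were tested with limma on the log2 scale and not with a count model. The submitters' processing notes name mm10, TopHat2 2.1.1, bedtools 2.29.2, DESeq2 and R 3.6.2. If total RNA per cell changed, the scaling would not show it.

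The main test was limma 3.58.1 (R 4.3.3) with a variance trend on log2(value + 1), fitted to all 59 conditions for 12714 genes with a mean of at least 10. Two-sided p-values were adjusted by Benjamini-Hochberg over all genes within each CKI, and an adjusted p under 0.05 was called. The fit was tested on simulated data in which samples were independent and every gene had the same dispersion. That test does not cover effects shared by a replicate number. The study's methods call the replicates of a condition independent and biological, and do not say what a replicate number shares across conditions. Precision is limited by 3 samples per CKI. Reads per sample, estimated from the steps of low values for 165 of 174 CKI samples, were 6540000 to 17000000.

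All 8 members were named, CKIs with at least 2 members called or of the MEK, ERK, RAF, JNK and p38 classes were described in full, up to 4 genes per list with the largest called change were available for naming, and 3 like genes were given per member. Members, lists, motifs and classes were chosen with earlier results of these data known. Alternatives were other pseudocounts (0.5 and 10), filters, scaling, DMSO sets, variance trend, groups in the fit, a replicate block, mitochondrial share, leave-outs and a fold threshold. Python 3.11.15 with pandas 2.3.3, NumPy 2.4.6, SciPy 1.17.1 and matplotlib 3.10.9 was used.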

Additional observations from a re-analysis of the deposited data

How the results depend on the processing

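The 18 higher and 25 lower calls of members became 8 higher and 11 lower when each CKI was fitted with DMSO alone. They became 24 higher and 43 lower with the replicate block, and 17 higher and 6 lower when a log2 change of at least 1 was also required. With the second DMSO set alone, 28 of the 43 calls were kept, and 9 calls were higher. With the first DMSO set alone, 30 of the 43 were kept. The causes were not tested. Leaving out 1 CKI replicate number or 1 DMSO sample gave 8 to 21 higher and 17 to 31 lower calls, with 11 higher without the CKI samples numbered 1 and 8 without those numbered 2. Of the 43 calls, 16 were kept in all 9 leave-outs and in the 11 other alternatives without the fold threshold, and no call changed direction in any alternative. Pairing by replicate number was checked by the correlation of deviations from condition means. Same-numbered samples had a mean of 0.226 and others -0.113, 71.8% of same-numbered pairs were over 0.1, and the lowest was -0.726. The number was left out of the main fit because not every same-numbered pair was over 0.1. That does not show the samples to be unpaired, as 172 of 180 samples lay closer to their own number. With the block, lower calls went from 2 to 7 for Fosl2, from 6 to 10 for Junb and from 9 to 15 for Atf3. Higher calls went from 13 to 19 for Fosb. All 43 calls were among the 67 under the replicate block, which added, among others, lower Fosl2 with IMD0354 (adjusted p = 2.24e-07), Mubritinib (9.87e-06), AZD2014 (1.33e-04), PH797804 (5.31e-04) and Pimasertib (0.007), and lower Fosl1 with Pimasertib (0.0233). Rescaling by the median of ratios moved the median of all genes by over 0.1 for BGT226 (-0.143), Lenvatinib (-0.139), Tofacitinib (-0.132), TG100115 (-0.115) and Capmatinib (-0.101), and ended 1 call, Fosb with MK2461 (adjusted p = 0.0689). It added 5 calls: Jun and Jund lower with Apitolisib (0.0425 and 0.0363), Jund lower with Lapatinib (0.0499), Fosl1 lower with Pimasertib (0.0474) and Fosb higher with Volasertib (0.0423). With the mitochondrial share and the block, Atf3 with Apitolisib, Lapatinib and Lenvatinib (adjusted p 0.159 to 0.289) and Junb with Lapatinib (0.0609) were also lost. That fit also added calls, among them higher Jun with PH797804 (0.0184) and lower Junb with Losmapimod (0.0432).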
